A study of Mus musculus with 18 samples.

Results

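A group of 10 crystallin genes of the mouse lens was followed in RNA-seq libraries of single whole embryos. It comprised 2 alpha genes (Cryaa and Cryab), 5 beta genes (Cryba1, Cryba2, Cryba4, Crybb1 and Crybb3) and 3 gamma genes (Cryga, Crygb and Crygc), out of 34244 named rows in the deposited expression table, of which 46 repeat an identifier. Members were taken by gene symbol. The 10 symbols were picked because most of them were low in embryos without Dnmt3b, so their difference between those embryos and wild type is given below as a description. No p is printed for it, and counts of calls stand beside the share of all genes without being read as evidence. All 10 passed the filter on low values (at least 0.1 FPKM in 3 of 9 libraries), but Cryba2, Cryga and Crygb, which were under 0.1 FPKM in every KO library, passed only through the other groups.

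All embryos were of the FVB strain and at E11.5. The 3 groups of 3 libraries were wild type (Dnmt3b+/+, WT1 to WT3), knockout (Dnmt3b-/-, KO1 to KO3) and knock-in (Dnmt3b CI/CI, KI1 to KI3). Dnmt3b is a de novo DNA methyltransferase. The KO allele is a constitutive null derived from mice with loxP sites in Dnmt3b, and the CI allele encodes a catalytically inactive protein from the endogenous locus after CRISPR/Cas9 editing. Embryos came from natural matings of heterozygous mice, and those with a heart beat were used. Levels are in FPKM, read number scaled to the length of the gene model and the size of the library, so they can be compared between genes. The read totals behind them were between 38451730 and 49808778 per library.

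Crystallins are the bulk soluble proteins of the lens. Alpha crystallins belong to the small heat-shock proteins and act as chaperones, whereas beta and gamma crystallins share a common fold and pack densely to give the lens its refraction. In the mouse, Cryaa comes on in the lens placode and vesicle, and beta and gamma genes follow as the cells at the back of the vesicle elongate into primary fibre cells, the process under way at this stage. Transcription factors such as Pax6, Sox2, Prox1 and Maf act on crystallin genes directly. Cryab is also made outside the lens, in heart and skeletal muscle among other tissues. A whole embryo holds few lens cells, so in these libraries fewer lens cells and less crystallin RNA per cell cannot be told apart.

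The libraries were checked first. The Dnmt3b level did not go down with the KO label. It was at 2.25, 1.62 and 2.04 FPKM in WT, 2.45, 3.12 and 3.33 FPKM in KO and 2.06, 1.98 and 2.32 FPKM in KI. A value summed over the whole gene cannot show the loss of the part between the loxP sites, so the KO label was not checked by it, and every KO direction below rests on the labels. Some libraries also differed in regional genes. KI2 was lowest of the 9 for all 9 of a list of forebrain genes picked after the values were seen, which summed to 7.26 FPKM there and to between 23.8 and 52.9 FPKM in the others. WT1 and KI3 had the lowest sums of 8 heart muscle genes (18.8 and 31.1 FPKM, against 39.8 to 138 FPKM elsewhere). Tnnc1 gave 11.1 and 18.5 FPKM of these sums, while Nppa had 4 and 7 reads, against 129 to 1666 elsewhere. KI3 overlapped the other libraries for Myh7, Tnnt2, Myl4 and Tnnc1. WT2 had the lowest sum of 6 hepatocyte genes (35.8 FPKM, against 45.4 to 235 FPKM). Ttr, highest in WT2, gave 35.5 FPKM of it, and the other 5 genes were lowest there, with 12 Alb reads against 918 to 8960 elsewhere. The part of these differences in the crystallin values was not tested, and the values of the members are given with and without KI2.

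The members lie in several places of the genome (mm10 coordinates, GENCODE M21). Crygc, Crygb and Cryga sit in a row on the minus strand of chromosome 1 (chr1:65071525-65073689, chr1:65080219-65082288 and chr1:65100389-65103373). Cryba2 is farther along chromosome 1 (chr1:74889934-74893143). Cryba4 (chr5:112246493-112252518) and Crybb1 (chr5:112255815-112269585) point away from each other across a gap of 3.30 kb, and Crybb3 (chr5:113075839-113081584) follows after 806 kb. Cryba1 is on chromosome 11 (chr11:77718615-77725283), Cryaa on chromosome 17 (chr17:31677807-31681733) and Cryab on chromosome 9 (chr9:50751325-50756636).

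RefSeq promoter windows of GRCm38.p6, from 250 bases before to 50 bases after the transcription start, were at hand for 9 members, all but Cryab. They are shown so that the start regions of the members can be compared. Distances are from the RefSeq start, which can differ from the GENCODE bounds given above, and the Cryaa match lies inside the GENCODE gene. Each window was searched on both strands for TGCTGA, the core of the MAF recognition element. The motif was in 8 of the 9 windows, all but that of Crygb, and in 19.5% of all 32851 promoter windows. None of the windows of Crygd, Cryge and Crygf, which lie near the gamma members or resemble them, held it. The 10 matches follow with 12 bases on either side, read in the direction of the motif, which is in capitals. The position is the distance from the start of the motif base farthest from it.
Cryaa, 108 bases before the start, chr17:31677811-31677840 (+): gagcattccagcTGCTGAcggtgcagcctc
Cryba1, 57 bases, chr11:77725333-77725362 (-): gggaaaagagagTGCTGAcagagccgctgg
Cryba2, 149 bases, chr1:74893275-74893304 (+): gacaacggaaagTGCTGAggcgcacatcgt
Cryba4, 182 bases, chr5:112252683-112252712 (-): catattccctagTGCTGAccctgggcaagc
Cryba4, 135 bases, chr5:112252636-112252665 (-): taaaggcagagcTGCTGAcatgtccactct
Cryba4, 77 bases, chr5:112252578-112252607 (-): ctatctctggctTGCTGAgtctgtgtttgt
Crybb1, 84 bases, chr5:112255724-112255753 (+): cccatccaggttTGCTGAcccagctgcctc
Crybb3, 67 bases, chr5:113081634-113081663 (+): cacattacgggaTGCTGAgatagcatcctg
Cryga, 215 bases, chr1:65103561-65103590 (-): tcataatggctcTGCTGActtgaattcctt
Crygc, 229 bases, chr1:65073744-65073773 (-): ttcaagctgatgTGCTGAtaaatttaaaaa
In Cryba2 and Crybb3 the match was on the strand opposite to the gene.

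The same windows were searched for 3 other motifs. ACAAT, the core recognised by SOX factors, was in 2 of 9 member windows (Cryaa and Crybb1), in the 3 windows of Crygd, Cryge and Crygf, and in 31.0% of all windows. TATAAA, the sequence of a TATA box, was in 3 of 9 (Cryba1, Cryba2 and Crybb1) and in 13.6% of all. Its first base lay 23 bases before the start in Cryba1 and 30 in Crybb1. In Cryba2 it lay 3 bases before, so that this match spans the start. GAANNTTC, where N is any base, is the core of a heat-shock element and was in 0 of 9, against 7.86% of all. A match is a run of letters and not a shown binding site. Crybb1, whose window held the first 3 motifs, and Cryga, the member with the fewest KO reads, are given below on the gene's strand from 250 to 11 bases before the start, with every match in capitals.
Crybb1, chr5:112255570-112255809 (+): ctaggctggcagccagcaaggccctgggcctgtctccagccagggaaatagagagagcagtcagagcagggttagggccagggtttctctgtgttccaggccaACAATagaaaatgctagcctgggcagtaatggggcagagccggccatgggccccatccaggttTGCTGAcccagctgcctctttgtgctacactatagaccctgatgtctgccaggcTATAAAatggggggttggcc
Cryga, chr1:65103374-65103613 (-): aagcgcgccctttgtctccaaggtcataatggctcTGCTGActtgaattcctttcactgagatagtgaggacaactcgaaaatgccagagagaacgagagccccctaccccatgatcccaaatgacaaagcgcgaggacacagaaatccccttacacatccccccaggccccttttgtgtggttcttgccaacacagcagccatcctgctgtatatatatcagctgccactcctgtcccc
In Crybb1 the capitals mark, in order, the SOX core, the MAF core and the TATA box, and in Cryga the MAF core alone.

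In wild-type embryos Cryaa was the most abundant crystallin. Its level was 25.5 ± 9.21 FPKM (SD, n = 3), followed by Crybb1 at 10.2 ± 3.05 FPKM. Cryba1 (5.60 ± 2.41 FPKM), Cryga (5.55 ± 1.76 FPKM), Cryab (5.53 ± 1.57 FPKM) and Crybb3 (4.45 ± 1.42 FPKM) came next, and the ranges of neighbours in this order overlapped. Cryba4 (2.68 ± 0.575 FPKM) lay below the range of Crybb3, and Cryba2 (1.38 ± 0.320 FPKM) below that of Cryba4. Crygc (0.750 ± 0.411 FPKM) and Crygb (0.585 ± 0.294 FPKM) were the lowest, with overlapping ranges. Alpha genes gave 48.5% to 52.1% of the summed FPKM of the 10 members in WT, beta genes 36.8% to 40.1% and gamma genes 9.98% to 11.7%.

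**Figure D1:**
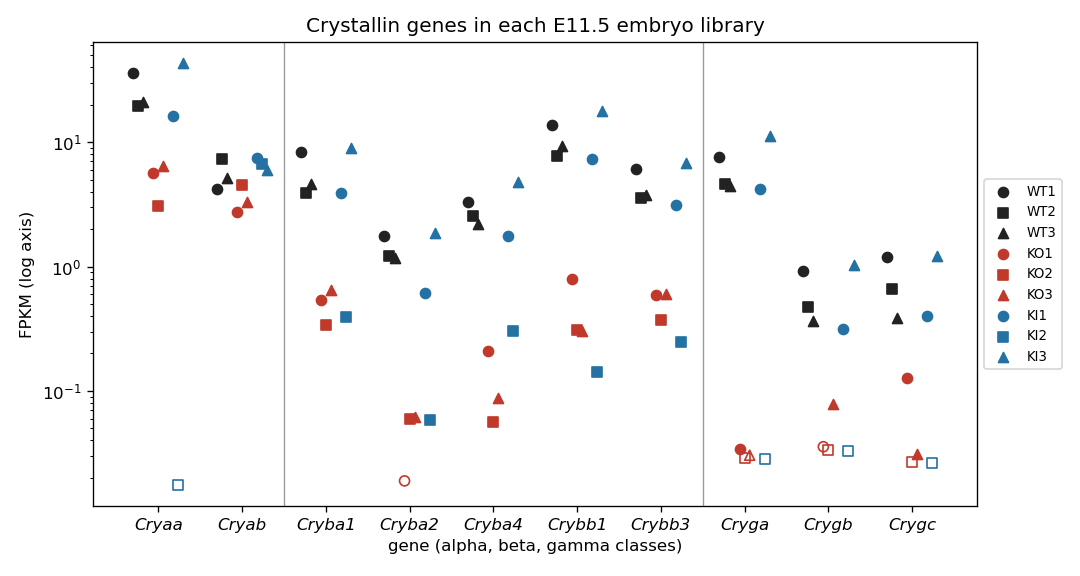
FPKM (log axis) of the 10 crystallin genes in each of the 9 libraries, one point per library (WT black, KO red, KI blue; circle, square and triangle are replicates 1, 2 and 3). Open points had no reads and sit at the table's floor value. The KO points lie below all WT points for every gene except Cryab, and KI2 lies with or below the KO points for all but Cryab and Cryba4.

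The wild-type spread was shared between genes. WT1 was the highest WT library for 9 of 10 members, all but Cryab, by 1.40-fold (Cryba4) to 2.27-fold (Crygc) over the mean of WT2 and WT3. WT1 was also low in heart muscle genes, as given above, and the part of this in the crystallin values was not tested.

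Cryaa, the chaperone of the lens, was at 36.1, 19.5 and 21.0 FPKM in WT, 5.69, 3.09 and 6.43 FPKM in KO and 16.4, 0.0175 and 42.9 FPKM in KI. All KO libraries were below all WT libraries, but Cryaa was still plainly present there, with 156 to 309 reads each. The KO mean was 19.9% of the WT mean, and the difference on the log2(FPKM + 0.1) scale was -2.32 ± 1.82 (SE). The large SE came with KI2, which shares the estimate of spread, and was 0.43 without it. KI2 had no Cryaa reads, so WT was at least 437-fold higher than KI2 at a floor of 3 reads in that library. The read numbers imply a Cryaa length of 1186 bases behind the values, against 2076 exon bases in GENCODE M21, so the gene model used was another one. The lengths of the other 9 members matched. In GENCODE M21 an antisense gene, AC090881.2, overlaps 13.2% of the Cryaa exon bases, and the strand setting of the counting is not given in the sources used here.

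Cryab, the second alpha crystallin and the member made widely outside the lens, behaved differently. It was at 4.19, 7.26 and 5.12 FPKM in WT, 2.75, 4.49 and 3.32 FPKM in KO and 7.48, 6.64 and 5.93 FPKM in KI. The WT and KO ranges overlapped, and KI2 lay between KI1 and KI3. The KO mean was 63.6% of the WT mean, with a log2 difference of -0.63 ± 0.22 (SE). WT1, the highest WT library for the other 9 members, was the lowest for Cryab. Its profile over the 9 libraries followed the mean of the other 9 members least (Pearson r = 0.387), while that of Cryaa gave 0.743 and those of the 8 beta and gamma genes 0.961 to 0.997. These are descriptions over 9 libraries that share group and depth.

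Hspb2, a small heat-shock gene, lies head to head with Cryab and overlaps 17.0% of its exon bases on the opposite strand, so reads of the overlap cannot be told apart without strand. Hspb2 was at 2.39, 4.96 and 4.56 FPKM in WT, 1.71, 2.37 and 2.34 FPKM in KO and 4.78, 6.07 and 3.77 FPKM in KI. Of 6 small heat-shock genes outside the crystallins, 1 fell in KO against WT (limma, adjusted p under 0.05 and at least 2-fold), where 3.38% of all 19397 tested genes did. This was Hspb3 (log2 difference -1.24 ± 0.31, adjusted p = 0.0219). Hspb2 and Hspb3 are known from muscle. The skeletal muscle list also moved: 6 of its 7 genes fell in KO (5 without KI2), and its sum was 16.3 to 45.1 FPKM in KO and 51.2 to 79.8 FPKM in WT. The part of muscle in the Cryab values was not tested.

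The beta crystallins, structural proteins of the fibre cells, were far lower in KO than in WT in every pair of libraries. Crybb1, the most abundant, was at 13.6, 7.72 and 9.32 FPKM in WT, 0.789, 0.310 and 0.300 FPKM in KO and 7.30, 0.141 and 17.8 FPKM in KI. The KO libraries held 12 to 31 reads of it and KI2 held 6, where the WT libraries held 360 to 599. Its KO minus WT difference was -4.25 ± 1.33 on the log2 scale. Cryba4, its neighbour on chromosome 5, was at 3.31, 2.54 and 2.19 FPKM in WT, 0.209, 0.0561 and 0.0883 FPKM in KO and 1.75, 0.303 and 4.75 FPKM in KI. KI2 was above all 3 KO libraries for Cryba4 and below all 3 for Crybb1, so the pair did not move as one in that embryo. The counts behind this were small, with 11 Cryba4 reads in KI2 and 2 to 7 in KO.

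Cryba1 was at 8.35, 3.87 and 4.57 FPKM in WT, 0.535, 0.339 and 0.650 FPKM in KO and 3.88, 0.391 and 8.89 FPKM in KI. Crybb3 was at 6.09, 3.53 and 3.74 FPKM in WT, 0.591, 0.373 and 0.603 FPKM in KO and 3.13, 0.248 and 6.80 FPKM in KI. These were the beta genes with the most left in KO, at 9.08% (Cryba1) and 11.7% (Crybb3) of the WT mean, and their log2 differences were -3.18 ± 0.90 and -2.85 ± 0.91. Both kept reads in KI2, with 27 of Cryba1 and 25 of Crybb3, although Cryaa had none there. Cryba2 was at 1.75, 1.21 and 1.18 FPKM in WT, 0.0189, 0.0592 and 0.0620 FPKM in KO and 0.616, 0.0581 and 1.87 FPKM in KI. Its KO libraries held 0, 3 and 3 reads, against 55 to 93 in WT, and its difference was -3.33 ± 0.74. Over the 5 beta genes the KO mean ranged from 3.39% (Cryba2) to 11.7% (Crybb3) of the WT mean.

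The gamma crystallins, the class tied most closely to fibre cells, were almost without reads in KO. Cryga was at 7.58, 4.59 and 4.47 FPKM in WT, 0.0343, 0.0290 and 0.0304 FPKM in KO and 4.21, 0.0285 and 11.3 FPKM in KI. The 3 KO libraries together held 1 Cryga read and the 3 WT libraries 542, a ratio per total read number of 498 with an exact 95% counting interval from 89.1 to 19725. Its log2 difference, -5.38 ± 1.35, was the largest of the 10 in size. Crygb was at 0.919, 0.475 and 0.362 FPKM in WT, 0.0356, 0.0334 and 0.0778 FPKM in KO and 0.316, 0.0328 and 1.03 FPKM in KI. Its 50 WT reads stood against 2 KO reads, a ratio of 23.0 (exact 95% interval 6.04 to 195). Crygc was at 1.20, 0.664 and 0.389 FPKM in WT, 0.128, 0.0269 and 0.0314 FPKM in KO and 0.397, 0.0265 and 1.22 FPKM in KI. KO1 held 4 of its 5 KO reads, against 12 to 42 reads in each WT library. The 3 genes had no reads at all in KO2 and in KI2. These intervals cover counting error only.

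The gamma genes share stretches of sequence with other genes, Gm28845 at the Cryga locus among them. The study counted reads of a minimum mapping quality, so reads that fit several genes may be missing from the values. How many reads this concerns was not tested, and the runs compared next are shorter than the reads. Of all 50-base runs in the transcripts of a gene, 42.3% (Cryga), 29.4% (Crygb) and 22.4% (Crygc) also occurred in transcripts of another gene, while none of the 5 beta genes shared one. Gm28845, an annotated gene that includes 47.9% of the Cryga exon bases on the same strand, was at 5.62, 3.31 and 3.30 FPKM in WT, 0.547, 0.642 and 0.572 FPKM in KO and 3.22, 0.0284 and 8.23 FPKM in KI. Values of single gamma genes are therefore uncertain. The level of the class is too, because some of the shared runs lie in genes outside it.

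As classes, the summed alpha level was 31.1 ± 8.04 FPKM in WT and 8.59 ± 1.09 FPKM in KO, or 27.7% of WT. The beta sum was 24.3 ± 7.68 and 1.66 ± 0.504 FPKM, or 6.83%. The gamma sum was 6.88 ± 2.45 and 0.142 ± 0.0542 FPKM, or 2.07%, floor values included. Within KO the make-up of the crystallin RNA was shifted too. With Cryab left out, Cryaa gave 70.8%, 71.6% and 77.7% of the remaining 9 genes in KO1 to KO3 and 44.2% to 45.8% in WT. Gamma genes gave 1.69% to 2.46% in KO and 11.1% to 13.0% in WT. The KO and WT ranges did not overlap for either share.

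**Figure D2:**
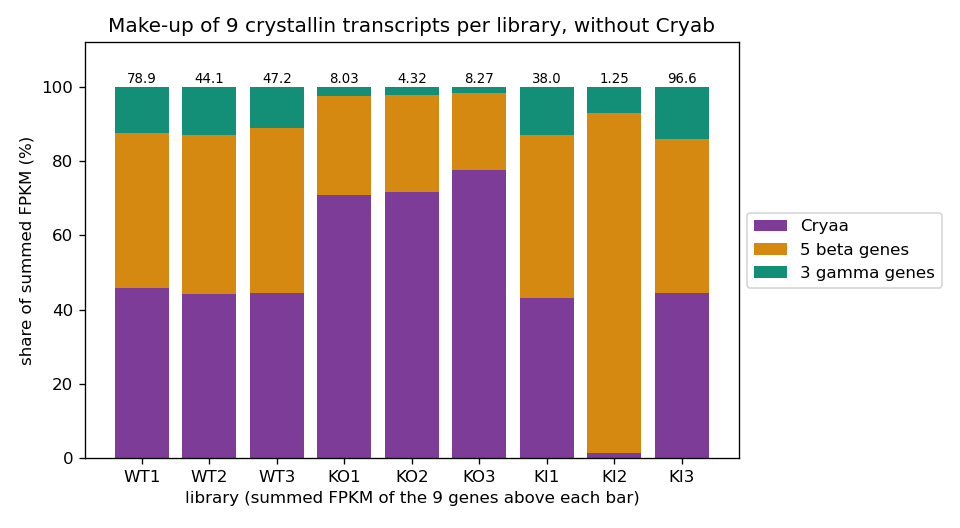
Share (%) of the summed FPKM of 9 crystallin genes, Cryab left out, given by Cryaa, the 5 beta genes and the 3 gamma genes in each library, with the sum in FPKM above each bar. KI1 and KI3 are near the WT make-up (Cryaa 43.1% and 44.4%, against 44.2% to 45.8% in WT), the 3 KO libraries are mostly Cryaa, and KI2, with a sum of 1.25 FPKM, is 91.6% beta. The Cryaa and gamma parts of the KI2 bar are floor values of genes without reads.

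Across all tested genes, every KO library lay below every WT library for 23.8%, and for 9 of the 10 members, Cryab being the exception. By the limma fit over 19397 genes, 3.38% of all genes were called lower in KO than in WT, as were 7 of the 10 members (5 of 5 beta genes, Cryga and Crygb). None of the members was called higher, against 1.07% of all genes. The members were chosen on this contrast, so nothing is read from these counts. The median log2 difference was -3.02 for the members and -0.07 for all genes. The number of members called was sensitive to single libraries. It was 2 without WT1, WT2, WT3, KO2 or KO3, 4 without KI1, 6 without KO1, 8 without KI3 and 9 without KI2, where the share of all genes was 3.17%. It was 4 without both WT1 and KI3, a choice made after seeing the data. The direction was down for all 10 members in each of these fits.

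**Figure D3:**
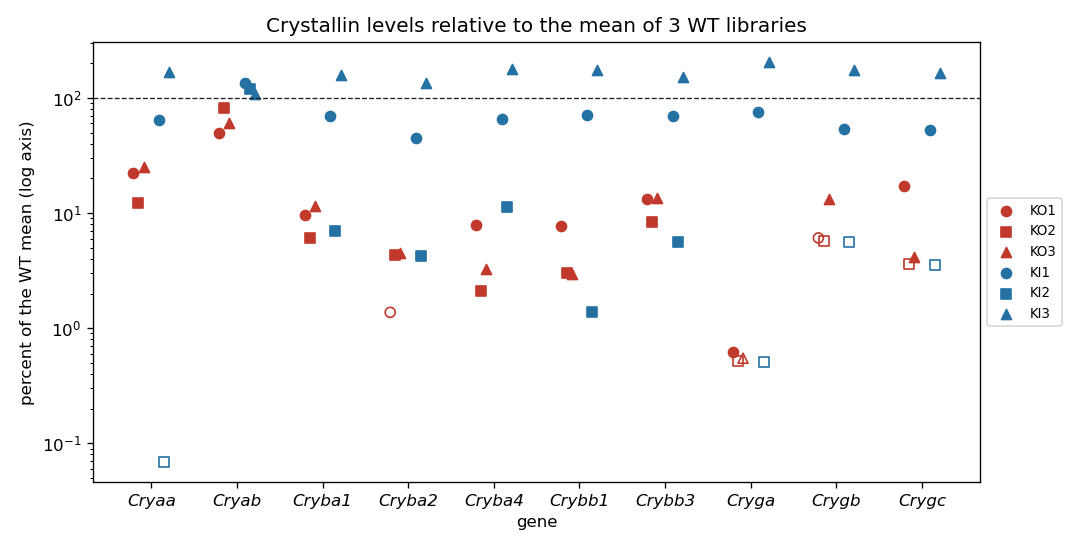
Level of each crystallin gene in KO (red) and KI (blue) libraries as percent of the mean of 3 WT libraries (log axis, dashed line at 100%). Open points had no reads and sit at the table's floor. KI1 lies below and KI3 above the WT mean for all genes except Cryab, where all 3 KI points lie above it.

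The catalytically inactive allele addressed whether the enzymatic activity of Dnmt3b is needed. By the limma fit, 0 of 10 members differed between KI and WT, and 0.129% of all genes did. None of the 10 had an unadjusted p under 0.05. The estimates were negative for 9 of 10 members, from -0.71 ± 0.66 (SE) for Crygb to -2.50 ± 1.82 for Cryaa, and were 0.30 ± 0.22 for Cryab (adjusted p = 0.949 to 0.950 for all 10). The 95% intervals were wide, from -6.65 to 1.66 for Cryaa and from -4.65 to 1.51 for Cryga, so large differences, more so downward, stayed within them. Without KI2 the estimates ran from -0.29 ± 0.40 (Cryba2) to 0.35 ± 0.39 (Cryga), and 8 of the 9 negative ones turned positive. The intervals then ran from -0.99 to 1.22 for Cryaa, from -0.90 to 1.30 for Crybb1 and from -0.56 to 1.27 for Cryga. KI2 was known to be unlike the others in these very genes, so the values without it are a description and no test.

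**Figure D4:**
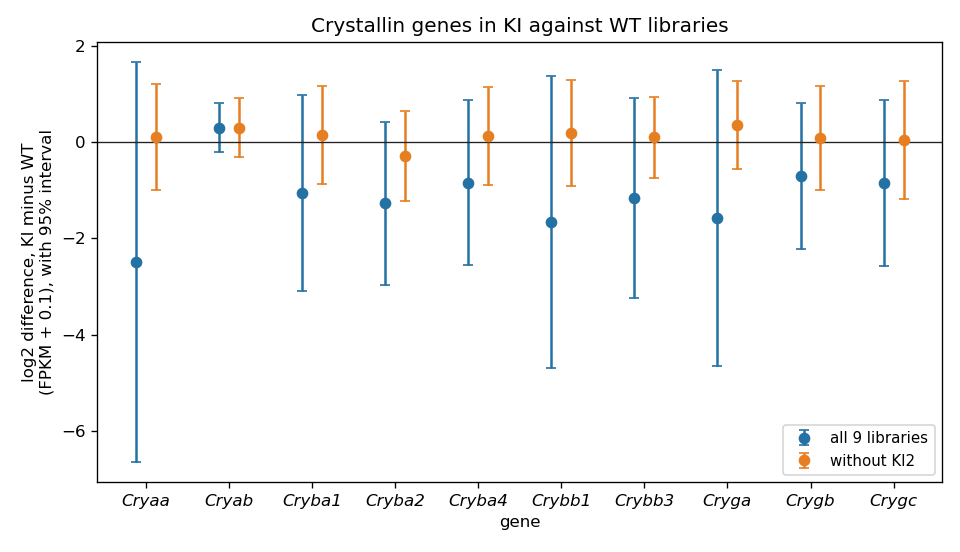
Fitted log2 difference in FPKM + 0.1 between KI and WT libraries for each crystallin gene, with its 95% interval, from all 9 libraries (blue) and without KI2 (orange). All intervals cross 0, and leaving out KI2 narrows them for every gene except Cryab.

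The KI embryos differed widely among themselves. KI3 was the highest of all 9 libraries for 9 members, all but Cryab (10.7% of all tested genes), and exceeded KI1 by 2.17-fold (Crybb3) to 3.24-fold (Crygb). KI1 was below every WT library for 7 members (20.3% of all tested genes) and within the WT range for 2, Cryba1 and Crygc. Its level was 44.7% (Cryba2) to 75.9% (Cryga) of the WT mean, Cryab apart. The make-up in both was near that of WT, with beta genes at 44.0% and 41.6% and gamma genes at 13.0% and 14.0% of the 9 genes. KI3 lay just outside the WT ranges of 42.0% to 44.5% (beta) and 11.1% to 13.0% (gamma), and KI1 just below that of Cryaa. Like WT1, KI3 was low in heart muscle genes, and the part of this was not tested. Both were above every KO library for all 10 members (33.4% of all tested genes), which were chosen for low KO levels, so nothing is read from this count.

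KI2 was below every WT library for 9 of 10 members (22.0% of all tested genes were) and below the other 8 libraries for 6 (7.99% of all). In 3 of these 6, the gamma genes, KO2 had no reads either, so their order rests on floor values alone, and Cryaa, Crybb1 and Crybb3 remain. Its crystallin RNA was unlike that of KO, although the sums of beta genes were alike, with 1.14 FPKM in KI2 and 1.14 to 2.14 FPKM in KO. Cryaa had 0 reads in KI2 and at least 156 in each KO library. Of the 9 genes without Cryab, Cryaa gave 1.41% of the sum in KI2, which is its floor value, and 70.8% to 77.7% in KO. Gamma genes were near or at the floor in KI2 and in the 3 KO libraries alike. Of the 7 retinal progenitor genes, 6 were lowest in KI2, and the sum of the 7 was 4.12 FPKM there and 10.3 to 24.4 FPKM elsewhere. KI2 is 1 embryo, so these are descriptions of that library.

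Set against KI rather than WT, KO had lower FPKM means for all 10 members. On the log2 scale the difference was negative for 9, and for Cryaa, with KI2 at the floor, it was 0.18 ± 1.82. By the same call, 1 member, Cryba4, was lower in KO, and 4.32% of all genes were. Without KI2 it was 9 members, all but Cryab, against 3.86% of all genes, with Cryga at -5.74 ± 0.39 and Cryaa at -2.43 ± 0.48. These comparisons use the same KO libraries as those against WT, and no test is read from them.

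The lens genes outside the crystallins were looked at as lists. Of 12 regulators of lens development, 1 fell in KO against WT by limma, where 3.38% of all genes did. Pitx3, a homeobox gene needed in the early lens and also active in muscle, was at 3.49, 5.14 and 5.53 FPKM in WT, 2.94, 1.34 and 1.10 FPKM in KO and 5.15, 4.75 and 5.69 FPKM in KI (log2 difference -1.45 ± 0.32, adjusted p = 0.0141). KO did not overlap with WT or KI, but the call was lost without WT3 or without KO2. Maf, the factor whose core motif was searched above, is also expressed in other tissues. It was at 4.37, 4.70 and 5.58 FPKM in WT, 3.94, 2.11 and 2.06 FPKM in KO and 5.04, 6.22 and 5.78 FPKM in KI. Maf fell in KO against KI (-1.10 ± 0.23, adjusted p = 0.00940) and was short of 2-fold against WT (-0.89 ± 0.23, adjusted p = 0.0235). Prox1, which drives fibre elongation and is also made in liver and brain, was at 2.62, 2.64 and 2.11 FPKM in WT, 2.01, 1.37 and 1.38 FPKM in KO and 2.49, 2.62 and 2.47 FPKM in KI. KO did not overlap with WT or KI for Prox1 either, and the difference from WT was short of 2-fold (-0.62 ± 0.15, adjusted p = 0.0205). Prox1 was named after its values were seen. Sox1, a lens fibre and neural factor, was higher in KO than in KI (1.51 ± 0.26, adjusted p = 0.00505). The median log2 difference of the list, KO minus WT, was 0.04, and that of all genes -0.07. Muscle genes were lower in KO as given above, and so were 3 of 6 cartilage genes. The part of these tissues in the Maf and Pitx3 values was not tested.

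Several other regulators had overlapping ranges in WT and KO. The genes of this paragraph were named after their values were seen. Foxe3, a forkhead gene of the lens epithelium, was at 0.853, 0.394 and 0.471 FPKM in WT and 0.607, 0.516 and 1.11 FPKM in KO, with overlapping ranges. Six3, a homeobox gene of the eye field and forebrain, was at 2.38, 1.81 and 1.79 FPKM in WT and 1.28, 2.22 and 3.51 FPKM in KO. Pax6, the master regulator of the eye, was at 2.42, 2.23 and 1.87 FPKM in WT and 1.88, 1.67 and 2.98 FPKM in KO. The 95% interval of the KO minus WT difference ran from -1.20 to 1.85 for Foxe3, from -1.78 to 2.03 for Six3 and from -0.81 to 0.74 for Pax6, so changes of more than 1 log2 unit stayed within the first 2 intervals. KI2 had the reverse pattern. It had 0 Foxe3 reads, where the other 8 libraries held 14 to 39, 9 Six3 reads against 241 to 775, and Pax6 at 0.585 FPKM, its lowest level. Yet KI2 had Pitx3 at 4.75 FPKM and Maf at 6.22 FPKM, near or above the WT libraries. KI2 was also the lowest library for the forebrain genes, as given above. These are levels of whole embryos, and the part of forebrain and other tissues in the Pax6, Six3 and Foxe3 values was not tested.

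**Figure D5:**
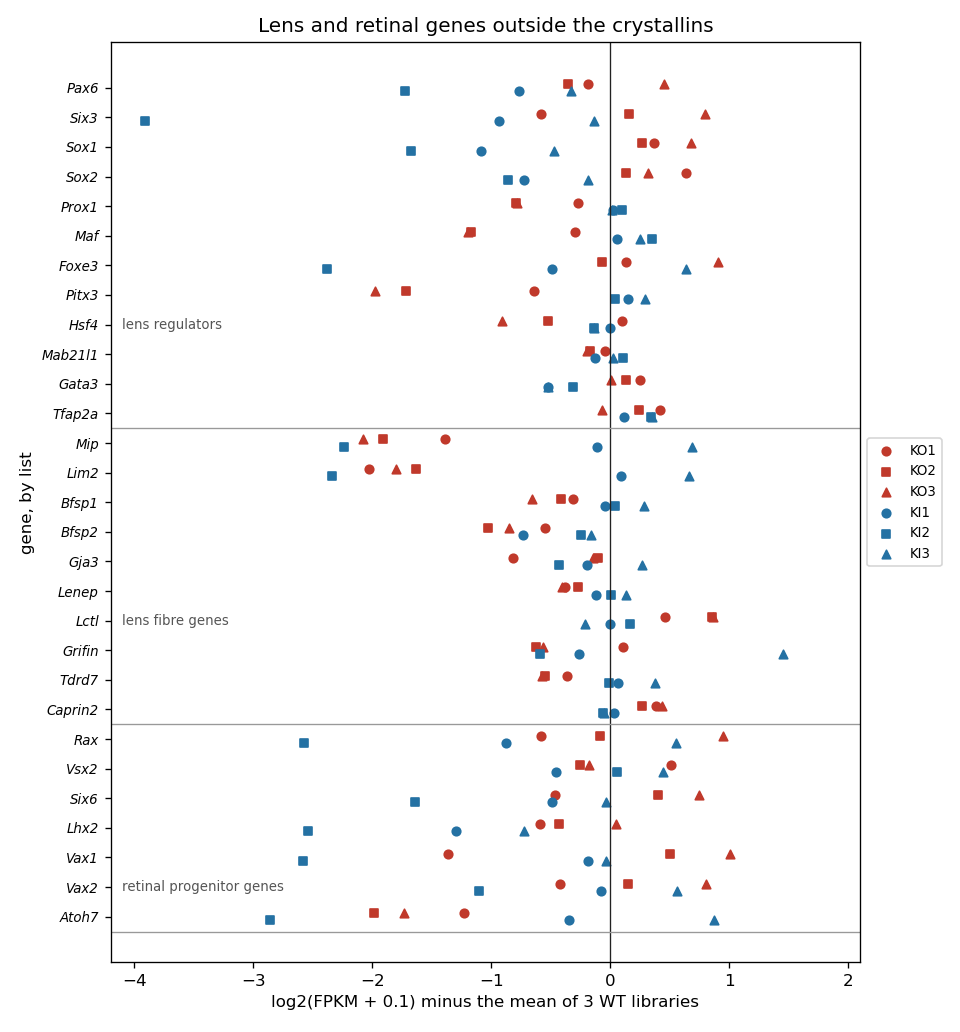
Level of 12 lens regulators, 10 lens fibre genes and 7 retinal progenitor genes in each KO (red) and KI (blue) library, as log2(FPKM + 0.1) minus the mean of the 3 WT libraries. KI2 (blue squares) stands far left for Six3, Foxe3 and Rax, where KO points scatter around 0, whereas KO points and KI2 are both left for Mip, Lim2 and Atoh7.

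Of 13 lens fibre genes, 10 passed the filter and 0 were called lower in KO by limma, with 6 lower and 2 higher at an unadjusted p under 0.05. Of all genes, 25.4% were lower and 14.6% higher at that p. Bfsp2, among the 6, was under 0.1 FPKM in every KO library and passed the filter only through the other groups, so nothing is read from it. The 2 higher genes were Caprin2 (0.734 to 0.757 FPKM in WT, 0.915 to 1.04 FPKM in KO) and Lctl (0.385 to 0.783 FPKM in WT, 0.838 to 1.15 FPKM in KO). Neither had overlapping ranges. Lenep, a gene of the lens epithelium, and Tdrd7, a granule protein needed in the lens, had the highest mean levels. Tdrd7 was at 1.90, 2.20 and 2.04 FPKM in WT and 1.56, 1.37 and 1.34 FPKM in KO, without overlap (log2 difference -0.50 ± 0.12, adjusted p = 0.0187), short of 2-fold. Lenep had a difference of -0.35 ± 0.10 (adjusted p = 0.0367). Mip, the water channel of the fibre cell, was at 2.09, 1.25 and 1.02 FPKM in WT, 0.468, 0.296 and 0.253 FPKM in KO and 1.28, 0.215 and 2.29 FPKM in KI. The KO libraries and KI2 all lay below the WT libraries, as for the crystallins. The difference, -1.79 ± 0.65, did not pass (adjusted p = 0.0730), and passed without KI2, as did that of Lim2, a fibre membrane protein (2 genes called). Lim2, Bfsp2, Caprin2 and Lctl were named after their values were seen. At 0.01 FPKM as the added constant 1 fibre gene was called, and with the WT and KO libraries alone 2 were. The list's median log2 difference was -0.41.

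No retinal or pigment gene was called lower in KO. Of 7 retinal progenitor genes and 9 pigment cell genes, 13 were tested, and 0 were called lower and 1 higher by limma in KO against WT, where 1.07% of all genes were higher. None was lower at an unadjusted p under 0.05. The higher gene was Mlana, a melanosome protein, with 1 to 3 reads per WT library, 12 to 19 per KO library and 8 to 14 per KI library. It was under 0.1 FPKM in every WT library and passed the filter only through the other groups, so nothing is read from its call. Lhx2, the retinal list's most abundant gene and a factor of the eye field, cortex and limb, was at 15.7, 18.4 and 16.6 FPKM in WT, 11.1, 12.5 and 17.4 FPKM in KO and 6.77, 2.81 and 10.2 FPKM in KI. Its KI minus WT difference was -1.52 ± 0.39, and all 3 KI libraries were below all WT libraries, but the call was not made (adjusted p = 0.615). The forebrain list moved with it, with sums of 28.0, 7.26 and 34.0 FPKM in KI1 to KI3 and 39.8 to 52.9 FPKM in WT, and its part in the Lhx2 values was not tested. Atoh7, which starts the first retinal neurons and was named after its values were seen, was at 1.17, 1.11 and 0.861 FPKM in WT, 0.385, 0.188 and 0.242 FPKM in KO and 0.793, 0.0567 and 1.98 FPKM in KI. It followed the crystallin pattern, but the KO minus WT difference of -1.65 ± 0.77 did not pass (adjusted p = 0.147), and it passed without KI2, when it was the 1 gene of these lists called lower. In KI against WT, 0 of 35 tested lens and eye genes were called, with 4 lower and 1 higher at an unadjusted p under 0.05. Of all genes, 0.129% were called, and 2.55% were lower and 2.70% higher at that p.

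The remaining genes that carry the name crystallin fell into 2 sorts. Cryge, at 2.57, 2.05 and 2.40 FPKM in WT, 0.173, 0.0976 and 0.307 FPKM in KO and 1.51, 0.0288 and 4.06 FPKM in KI, had the pattern of the members. So had Crygd (0.471 to 1.31 FPKM in WT, 0.0220 to 0.0720 FPKM in KO), Crygf (0.512 to 0.572 against 0.0338 to 0.0360 FPKM) and Crygn (0.763 to 2.04 against 0.0264 to 0.281 FPKM). By limma 2 of these 4 (Crygd and Crygf) were called lower in KO with all libraries, and all 4 without KI2. Crygd and Crygf were under 0.1 FPKM in every KO library and passed the filter only through the other groups. Crygd, Cryge and Crygf also share 19.7% to 48.3% of their 50-base runs with other genes, members among them. They are not independent of the members, and nothing is read from these counts. Crygs had at most 5 reads in any library, and Crybb2, a late crystallin, had none in any. The other sort are proteins that are not lens-specific in the mouse. Crym, a thyroid hormone binding protein, rose in KO, from 2.38, 1.78 and 2.35 FPKM in WT to 2.73, 5.39 and 6.54 FPKM (log2 difference 1.06 ± 0.29, adjusted p = 0.0295). For Cryz, Cryzl1, Cryl1, Crybg1, Crybg2 and Crybg3, the last listed in 2 rows, the KO minus WT differences ran from -0.38 to 0.17, and none was called.

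By likeness over the 9 libraries, Cryge (Pearson r = 0.978) and Mip (0.975) came closest to the mean profile of the 10 members among genes with a mean of at least 1 FPKM. Zbtb45 (0.958), Rab14 (0.952), Spin1 (0.950), Glis1 (0.943), Ddah1 (0.940), Col17a1 (0.938), Alpl (0.934) and Gm28845 (0.934) followed. Likeness ignores size. Rab14 was between 5.11 and 5.59 FPKM in all libraries, and Spin1 between 22.7 and 26.4 FPKM. Mip was the 1 lens gene outside the crystallin family among these 10 by the lists used here.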

How the data were processed

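Total RNA of single whole embryos was sequenced as paired ends on an Illumina NovaSeq instrument. According to the methods of the study, reads were aligned to the mouse build mm10 with STAR. Those of a minimum mapping quality were quantified per gene in SeqMonk, and the authors used DESeq2 for their own comparisons. The values analysed here are the FPKM values the authors deposited for 9 libraries and 34245 rows, of which 1 had no gene name. The annotation and the strand setting are not given in the sources used here. Methylation libraries of the series were not analysed here. Every gene without reads carries a small floor value. Because low values step in whole reads, read numbers were recovered for 96.4% of genes (tolerance 0.004 reads), and the implied lengths were within 0.5% of GENCODE M21 for 91.4% of those with reads. The read numbers served for floors and counting intervals.

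Differences were tested with limma 3.58.1 in R 4.3.3 on log2(FPKM + 0.1), which understates the change of low genes. Genes needed 0.1 FPKM in 3 of 9 libraries (19397 genes). All 9 libraries and 3 groups shared one estimate of spread, with a trend on the mean. Calls needed a Benjamini-Hochberg adjusted p under 0.05 over all tested genes and at least 2-fold. Values are given as log2 difference ± SE. The fit was tested on simulated data. Labels name 3 embryos per genotype as independent. Counting intervals are exact 95% conditional intervals.

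The members and gene lists were chosen with earlier results of these data known. A gene of the lens fibre list is not reported here and was left out of its counts. Named are the 10 members, the other crystallin genes, called genes of each list (at most 4, the largest by log2 difference, or else the 2 of highest mean level), the 10 genes most like the members, and Dnmt3b. Likeness is Pearson r of log2(FPKM + 0.1) with the mean of the 10 standardised members over 9 libraries, among genes with a mean of at least 1 FPKM. Alternatives covered the added constant, the filter, scaling, the libraries in the fit, library weights and the replicate block.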

Additional observations from a re-analysis of the deposited data

How the results depend on the processing

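The KO minus WT difference stayed negative for all 10 members under every alternative run, whereas the number of members called moved. Called lower in KO than in WT were 7 members as reported, 2 with no filter on low values, 4 after quantile normalization, 4 without WT1 and KI3 together (added after seeing the data), and 2 to 9 when single libraries were left out. Replicate numbers did not pair the embryos: deviations of libraries with the same number correlated at -0.34 to 0.215 (mean -0.0866), and those of other pairs at -0.269 to 0.33. With the replicate number as a block 4 members were called. Lower in KO than in KI was 1 member as reported, 0 with 1 FPKM as the added constant or with no filter, 2 with library weights and 0 to 9 when leaving out single libraries. For KI against WT, 0 members were called under each alternative, and 1 lens or eye gene with library weights. Among lens regulators 2 were lower with library weights and 0 to 2 when leaving out single libraries. Among lens fibre genes 1 was lower with 0.01 FPKM as the added constant, 2 with the compared groups alone and 0 to 2 when leaving out single libraries. Among retinal and pigment genes 1 was lower with the compared groups alone, and 0 to 1 when leaving out single libraries. Without KI2, 4 other crystallin genes were lower in KO than in WT (2 as reported) and 5 skeletal muscle genes (6 as reported, Myog being lost). A filter of 1 FPKM left 8 members, without Crygb and Crygc. The causes of these shifts were not tested.

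Leaving out single libraries took the KI minus WT difference from -4.15 to 0.11 for Cryaa, -1.95 to 0.15 for Cryba1, -1.67 to 0.13 for Cryba4 and -2.91 to 0.20 for Crybb1. It ran from -2.06 to 0.10 for Crybb3, -2.88 to 0.35 for Cryga, -1.46 to 0.08 for Crygb and -1.65 to 0.05 for Crygc. In each of these 8 the highest value was the one without KI2 and the lowest the one without KI3. The KO minus KI difference of Cryaa, 0.18 as reported, was -0.64 with 1 FPKM as the added constant, -0.32 with library weights and -2.43 to 1.83 when leaving out single libraries. Depth limits Crygb and Crygc, with 9 to 42 reads in each WT library.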
